A study of Mus musculus with 22 samples.

Results

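The interleukin-10 axis was described through 5 genes, Il10, Il19, Il10ra, Il10rb and Stat3, taken by symbol from the 15725 genes of the deposited table. All 5 had a line in the table and all 5 were among the 11070 genes that were tested, which had at least 1 FPKM (fragments scaled to transcript length and to the mapped fragments of a library) in at least 3 libraries. The 22 RNA libraries came from primary microglia of C57BL/6 mice. Mixed glia from the cortex of pups 1 to 3 days old had been cultured for 8 to 10 days, and the microglia were then detached by shaking. Every culture was given lipopolysaccharide (LPS), the bacterial cell wall molecule that activates microglia through Toll-like receptor 4, at 100 ng/ml for 24 h, and no culture without LPS was analysed here. The groups were LPS+CLA (CLA at 50 nM, n = 6), LPS+Baf A1 (bafilomycin A1 at 10 nM, which blocks lysosomal acidification, n = 5), LPS+siAtg5 (48 h of transfection with an siRNA against the autophagy gene Atg5 at 50 nM, n = 5), LPS+dNC (n = 3) and LPS alone (n = 3). The series set LPS+CLA and LPS+Baf A1 against LPS, and LPS+siAtg5 against LPS+dNC. The labels spell out neither CLA nor dNC and give no siRNA dose for the dNC cultures.

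Interleukin-10 is an anti-inflammatory cytokine that activated macrophages and microglia make some hours after LPS. It binds a receptor of 2 kinds of chain, the ligand-binding IL-10RA and the shared IL-10RB, whose kinases JAK1 and TYK2 phosphorylate the transcription factor STAT3, and STAT3 in turn raises genes that hold back inflammatory mRNAs. IL-19 belongs to the same cytokine family but signals through other receptor chains, IL-20RA and IL-20RB, which also act on STAT3.

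A few facts of the whole series bear on these genes. Atg5 was at 12.59 to 13.51 FPKM in the LPS+siAtg5 libraries, against 21.36 to 24.26 FPKM in LPS+dNC, and it lay between 19.83 and 25.99 FPKM in the other 3 groups. The 8 microglia markers summed to between 1130 and 2378 FPKM in every library, with none at 0. The highest of them was Csf1r or Itgam in every group. In LPS+dNC 7 of the 8 averaged 1 FPKM or more, and in the other groups all 8 did. Astrocyte markers were high in LPS+siAtg5: the 10 of them summed to 280.1 to 326.2 FPKM there, against 4.9 to 16.3 FPKM in LPS+dNC and 8.17 to 12.55 FPKM in LPS, and Gfap alone averaged 125.9 FPKM. Between 10752 and 10908 genes reached 1 FPKM in LPS+siAtg5 libraries, against 9112 to 9571 genes in all others. Earlier results on these files had shown LPS+CLA replicate 2, LPS+dNC replicate 1 and LPS replicate 3 to lie apart from their groups, and counts of listed genes are given with and without them. The 3 LPS+dNC columns carry no unit in their headers, and a difference in how those columns were made cannot be told apart from the dNC group itself. The values are not read counts, so depth is unknown. Whether replicates were separate cultures is not said in the labels, and the spread that the p-values measure may thus be technical. In such bulk samples, fewer cells of a type and less RNA per cell cannot be told apart.

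Il10, which encodes interleukin-10, spanned the 5 groups with little overlap. It lies on chromosome 1 at 131019845 to 131024974 on the plus strand (GRCm38). In LPS+CLA its level had a lowest value of 18.05, a median of 24.91 and a highest value of 25.79 FPKM over the 6 libraries. In LPS+Baf A1 the 5 libraries were at 3.75, 2.25, 3.59, 3.67 and 3.95 FPKM, and in LPS+siAtg5 at 26.38, 25.02, 25.02, 28.48 and 22.65 FPKM. The 3 LPS+dNC libraries were at 105.84, 89.8 and 105.84 FPKM, and the 3 LPS libraries at 5.71, 5.98 and 11.24 FPKM. The dNC libraries were thus the highest, CLA and siAtg5 libraries shared a middle range, and the Baf A1 libraries lay below every LPS library. Only CLA and siAtg5 overlapped among neighbours in this order. The LPS group had the widest relative spread, with a coefficient of variation of 40.79%, because replicate 3 was higher than the other 2.

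Il19, which encodes the IL-10 family cytokine IL-19, had the widest range of the 5 genes. It sits on the same chromosome, at 130932656 to 130940115 on the minus strand, and the 79.7 kb between Il19 and Il10 hold 0 other annotated genes. In LPS+CLA it ran from a lowest value of 2.68 through a median of 3.24 to a highest value of 11.43 FPKM. In LPS+Baf A1 it was at 0.65, 0.26, 0.6, 0.93 and 0.69 FPKM, and in LPS+siAtg5 at 1.17, 2.09, 1.22, 2.16 and 1.3 FPKM. In LPS+dNC it reached 118.27, 168.61 and 252.31 FPKM, against 0.65, 1.34 and 1.59 FPKM in LPS. Every dNC library thus stood far above all others, and every CLA library stood above the siAtg5, LPS and Baf A1 libraries. The siAtg5 libraries overlapped with LPS, and LPS overlapped with Baf A1. All Baf A1 libraries and LPS replicate 1 were under 1 FPKM, where a log2 change of FPKM + 1 understates the fold. The 11.43 FPKM of CLA replicate 2 was the one high CLA value.

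The stretch of 250 bases in front of the Il19 start site is shown because Il19 had the widest range of levels of the 5 genes. It was taken from the RefSeq promoter table (GRCm38.p6, chr1:130940116-130940365, minus strand, 5′ to 3′), which matched 2 of the 5 genes, Il19 and Stat3. Capitals mark the matches to the motifs searched for.
Il19 promoter: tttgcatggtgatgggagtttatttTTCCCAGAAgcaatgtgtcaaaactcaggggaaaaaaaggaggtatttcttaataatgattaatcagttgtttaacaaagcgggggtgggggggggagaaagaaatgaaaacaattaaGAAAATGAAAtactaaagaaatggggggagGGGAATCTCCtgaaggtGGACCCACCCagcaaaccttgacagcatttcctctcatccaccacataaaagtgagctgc
Both strands were searched. The STAT motif TTCNNNGAA had 1 match, TTCCCAGAA, which ends 216 bases before the start, and 7.02% of 32851 promoter windows of the same length hold this motif. The NF-kB motif (GGG, 5 bases of any kind, then CC) had 2 matches, which end 67 and 50 bases before the start, and 45.8% of the windows hold one. The interferon-response core (GAAA, any 2 bases, GAAA) had 1 match, 97 bases before the start, against 2.98% of windows. No match was found to the AP-1 motif TGANTCA (6.75% of windows), the CRE motif TGACGTCA (1.55%) or the C/EBP motif TTGCNNAA (9.56%). The same window of Stat3 held none of the 6 motifs. A match in letters is a description and does not show binding.

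Il10ra, the gene of the ligand-binding receptor chain (chromosome 9, 45253837 to 45269149, minus strand), was highest in LPS alone. In LPS+CLA it had a lowest value of 44.71, a median of 45.89 and a highest value of 57.82 FPKM. In LPS+Baf A1 the libraries were at 52.01, 52.78, 53.57, 53.47 and 52.28 FPKM, and in LPS+siAtg5 at 36.69, 33.98, 36.42, 34.21 and 38.02 FPKM. In LPS+dNC they were at 43.37, 50.76 and 46.03 FPKM, against 59.99, 65.46 and 58.15 FPKM in LPS. All 3 LPS libraries lay above every other library, and all 5 siAtg5 libraries lay below every other library. The Baf A1, CLA and dNC groups filled the space between, where Baf A1 overlapped with CLA and CLA overlapped with dNC.

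Il10rb, the gene of the chain that IL-10 shares with other cytokines of the family (chromosome 16, 91406164 to 91425834, plus strand), was the most abundant of the 5 transcripts per length except in dNC, where Il19 averaged more. In LPS+CLA it had a lowest value of 86.28, a median of 96.84 and a highest value of 101.07 FPKM. In LPS+Baf A1 it was at 90.49, 87.92, 90.47, 91.4 and 87.18 FPKM, and in LPS+siAtg5 at 90.67, 93.52, 94.25, 95.77 and 92.76 FPKM. In LPS+dNC it was at 165.55, 153.43 and 152.63 FPKM, against 117.05, 114.49 and 127.41 FPKM in LPS. The dNC libraries were the highest and the LPS libraries came next, both clear of the rest. The CLA, siAtg5 and Baf A1 libraries lay together, and neighbours among them overlapped. In the GENCODE M21 annotation, 569 exonic bases of Il10rb (14.9%) overlap the gene Gm21970 on the same strand. Reads of the 2 genes may thus have been split, which leaves the level of Il10rb uncertain. The annotation behind the deposited values is not given, and the size of any such effect was not measured.

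Stat3, the gene of the transcription factor on which IL-10 and IL-19 signals converge (chromosome 11, 100885098 to 100939540, minus strand), was set apart by the dNC libraries. In LPS+CLA it had a lowest value of 56.26, a median of 58.05 and a highest value of 66.87 FPKM. In LPS+Baf A1 it was at 65.01, 67.24, 69.1, 65.47 and 67.86 FPKM, and in LPS+siAtg5 at 62.81, 60.91, 61.97, 60.97 and 59.47 FPKM. In LPS+dNC it was at 113.52, 108.11 and 113.7 FPKM, against 71.71, 71.95 and 65.55 FPKM in LPS. The dNC libraries were far above all others. LPS overlapped with Baf A1, siAtg5 overlapped with CLA, and every siAtg5 library was below every Baf A1 library.

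**Figure D1:**
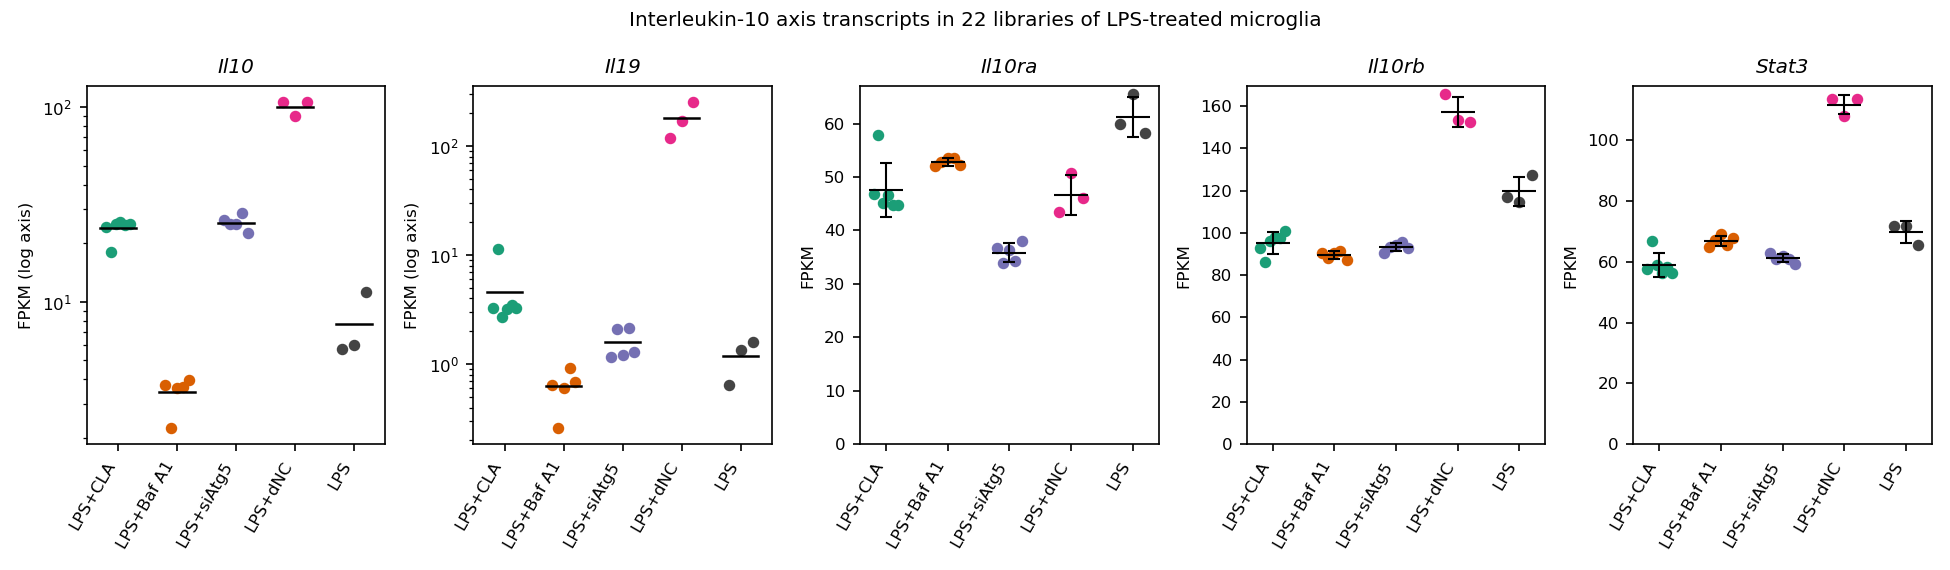
Levels of the 5 transcripts in FPKM, 1 point a library, in the 5 groups; the axes of Il10 and Il19 are logarithmic, horizontal lines are group means and bars on the linear panels are SD. The LPS+dNC libraries are the highest for Il10, Il19, Il10rb and Stat3, while for Il10ra the 3 LPS libraries, at 58.15 to 65.46 FPKM, lie above all others.

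With CLA, both cytokine genes were higher and the receptor and Stat3 genes were lower than with LPS alone. Values were compared as log2(FPKM + 1) in 1 limma model of all genes and libraries, with Benjamini-Hochberg adjustment over the genes tested and calls at an adjusted p under 0.05. Il10 averaged 23.83 ± 2.88 FPKM (SD, n = 6) in LPS+CLA and 7.643 ± 3.12 FPKM (n = 3) in LPS, a difference of 1.57 ± 0.154 (SE) on the log2 scale (limma adjusted p = 1.03e-08). Il19 averaged 4.555 ± 3.38 FPKM in LPS+CLA and 1.193 ± 0.487 FPKM in LPS, a difference of 1.22 ± 0.295 (SE) on the log2 scale (limma adjusted p = 0.00122), and it was still called without CLA replicate 2, at a log2 change of 0.95 and a limma adjusted p of 0.000174. The falls were small. Il10ra was 22.17% lower in LPS+CLA than in LPS (log2 change -0.36, limma adjusted p = 5.75e-05), Il10rb 20.28% lower (-0.32, limma adjusted p = 1.75e-06) and Stat3 15.23% lower (-0.24, limma adjusted p = 0.000138). Under median-of-ratios scaling, which sets the typical gene level equal between libraries, the change of Stat3 was -0.38. For Stat3 the libraries of the 2 groups overlapped, because CLA replicate 2 at 66.87 FPKM was above LPS replicate 3, and for the other 4 genes they did not. In this comparison 63.1% of all genes tested were called, 40.4% as higher and 22.6% as lower, and libraries did not overlap for 51.6% of genes, so 5 calls of 5 genes are to be read against a background in which most genes moved. The median change of all genes was 0.09 on the log2 scale. The 9 neuron markers summed to 0.9 to 7.73 FPKM in LPS+CLA and to 13.58 to 17.23 FPKM in LPS, with 7 of 7 tested called lower. Border macrophage and monocyte markers summed to 162.3 to 285 FPKM in LPS+CLA and to 105.6 to 119 FPKM in LPS. Pf4 made up most of that, at means of 243.9 and 97.67 FPKM in these groups. Of 4 tested, 1, Pf4, was called higher and 2, Mrc1 and Ly6c2, were called lower. The part of other cell types in these changes was not tested.

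With Baf A1, Il10 and both receptor genes were lower than with LPS alone. Il10 averaged 3.442 ± 0.68 FPKM (SD, n = 5) in LPS+Baf A1 and 7.643 ± 3.12 FPKM (n = 3) in LPS, a difference of -0.92 ± 0.159 (SE) on the log2 scale (limma adjusted p = 3.92e-05). Without LPS replicate 3, the LPS library with the most Il10, the change was -0.64 (limma adjusted p = 0.000402). Il10rb was 25.21% lower in LPS+Baf A1 than in LPS (log2 change -0.41, SE 0.047, limma adjusted p = 1.18e-07). Il10ra was 13.69% lower (-0.21, SE 0.0682, limma adjusted p = 0.0125), a call that was lost without LPS replicate 2, at a change of -0.16 and a limma adjusted p of 0.0898. Il19, at a mean of 0.626 FPKM against 1.193 FPKM in LPS, was not called (log2 change -0.42, SE 0.305, limma adjusted p = 0.254), nor was Stat3, at 66.94 FPKM against 69.74 FPKM (-0.06, SE 0.0484, limma adjusted p = 0.328). Of all genes tested, 57.8% were called, 32.7% as higher and 25.1% as lower, and 52.7% had libraries that did not overlap. The axis thus had 3 calls of 5, all lower, at a share near that background. The border macrophage and monocyte markers summed to 187.8 to 245 FPKM in LPS+Baf A1 and to 105.6 to 119 FPKM in LPS. Pf4 made up most of that, at means of 208.9 and 97.67 FPKM in these groups. Of 4 tested, 1 was called higher and 1 lower, namely Pf4 and Mrc1. The 10 astrocyte markers summed to 16.63 to 19.31 FPKM in LPS+Baf A1, against 8.17 to 12.55 FPKM in LPS. Gja1, the highest of them, averaged 11.22 FPKM in LPS+Baf A1 and 3.373 FPKM in LPS. Of these 10, 3 were called higher, 1, Aqp4, lower and 6 not called. Of 7 neuron markers tested, 0 were called higher and 4 lower. The part of other cell types in the result was not tested.

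With the siRNA against Atg5, all 5 genes were lower than in the dNC cultures. Il19 averaged 1.588 ± 0.493 FPKM (SD, n = 5) in LPS+siAtg5 and 179.7 ± 67.7 FPKM (n = 3) in LPS+dNC, so it was 99.12% lower (log2 change -6.08, SE 0.305, limma adjusted p = 1.61e-13). Il10 averaged 25.51 ± 2.13 FPKM in LPS+siAtg5, against 100.5 ± 9.26 FPKM in LPS+dNC (log2 change -1.94, SE 0.159, limma adjusted p = 2.3e-10). Stat3 was 45.22% lower in LPS+siAtg5 than in LPS+dNC (log2 change -0.86, limma adjusted p = 2.28e-13), Il10rb 40.59% lower (-0.74, limma adjusted p = 1.7e-12) and Il10ra 23.24% lower (-0.37, limma adjusted p = 3.41e-05). The libraries of the groups did not overlap for any of the 5. In this comparison 81.2% of all genes tested were called, 59.6% as higher and 21.6% as lower, and 77% had libraries that did not overlap. The median change of all genes was 0.34, so relative to that median the changes were -2.28 for Il10, -6.42 for Il19, -0.71 for Il10ra, -1.08 for Il10rb and -1.20 for Stat3. The astrocyte markers given above moved with this comparison too, with 10 of 10 called higher in LPS+siAtg5 and none at 0. Neuron markers also moved: 7 of 7 tested were called higher, and the 9 of them summed to 59.73 to 74.68 FPKM in LPS+siAtg5, against 1.92 to 14.09 FPKM in LPS+dNC. The 9 fibroblast, mural and endothelial markers analysed summed to 88.48 to 113.5 FPKM in LPS+siAtg5, against 7.55 to 16.52 FPKM in LPS+dNC, with 5 of 7 tested called higher. Of 6 oligodendrocyte lineage markers tested, 5 were called higher and 0 lower. The 8 microglia markers moved as well, with 6 called higher and 2 lower. They summed to 1548 to 1629 FPKM in LPS+siAtg5, against 1130 to 1264 FPKM in LPS+dNC. The neutrophil gene S100a8 averaged 27.89 FPKM in LPS+siAtg5, against 357.3 FPKM in LPS+dNC. The part of these cell types in the result was not tested.

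The dNC cultures themselves differed from LPS alone in all 5 genes. Il19 averaged 179.7 FPKM in LPS+dNC and 1.193 FPKM in LPS, a ratio of 150.6 (log2 change 6.32, SE 0.34, limma adjusted p = 2.18e-12). For Il10 the ratio of LPS+dNC to LPS was 13.15 (log2 change 3.61, SE 0.178, limma adjusted p = 1.53e-13). Stat3 was 60.28% higher in LPS+dNC than in LPS (log2 change 0.67, limma adjusted p = 3.86e-10) and Il10rb 31.39% higher (0.39, limma adjusted p = 1.22e-06), while Il10ra was 23.66% lower (-0.38, limma adjusted p = 0.000171). All genes together had 57.2% called, 29% as higher and 28.1% as lower, with a median change of 0.00, and 53.6% had libraries that did not overlap. S100a8, a neutrophil gene that myeloid cells also use, moved with the dNC group, at a mean of 357.3 FPKM in LPS+dNC and 8.56 FPKM in LPS. Of the 9 lymphocyte and neutrophil markers listed, Ms4a1 and S100a8 were analysed here, and they summed to 129.2 to 632.8 FPKM in LPS+dNC and to 5.68 to 12.46 FPKM in LPS. The microglia markers summed to 1130 to 1264 FPKM in LPS+dNC and to 1552 to 2133 FPKM in LPS, and the 7 markers of border macrophages and monocytes to 16.44 to 59.02 FPKM in LPS+dNC, against 105.6 to 119 FPKM in LPS. Of the 8 microglia markers, 2 were called higher and 4 lower. Among the lower was Cx3cr1, at a mean of 0.1767 FPKM in LPS+dNC and 7.79 FPKM in LPS. The part of other cell types in this difference was not tested.

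Set against LPS alone, the siAtg5 cultures gave another picture. Il10 averaged 25.51 FPKM in LPS+siAtg5, against 7.643 FPKM in LPS, a difference of 1.67 ± 0.159 (SE) on the log2 scale (limma adjusted p = 3.86e-09), which is opposite in direction to the comparison with dNC. Il19 was not called, at 1.588 FPKM in LPS+siAtg5, against 1.193 FPKM in LPS (0.24, limma adjusted p = 0.474), and its sign turned to -0.61 after quantile normalization (limma adjusted p = 0.0828). Il10ra was 41.4% lower in LPS+siAtg5 than in LPS (log2 change -0.75, limma adjusted p = 1.24e-09), Il10rb 21.94% lower (-0.35, limma adjusted p = 5.29e-07) and Stat3 12.2% lower (-0.18, limma adjusted p = 0.0016). Here 76.8% of all genes tested were called, 61.2% as higher and 15.6% as lower, and 70.7% had libraries that did not overlap. The median change was 0.31, so relative to that median the changes were 1.36 for Il10, -0.07 for Il19, -1.07 for Il10ra, -0.66 for Il10rb and -0.50 for Stat3. Under median-of-ratios scaling they were 1.34 for Il10, 0.04 for Il19, -1.10 for Il10ra, -0.70 for Il10rb and -0.53 for Stat3. These 2 comparisons share the siAtg5 libraries, and those of CLA, Baf A1 and dNC against LPS share the 3 LPS libraries. In LPS+siAtg5 against LPS, 10 of 10 astrocyte and 7 of 7 neuron markers tested were called higher. So were 5 of 7 fibroblast, mural and endothelial and 5 of 6 oligodendrocyte lineage markers. Of 8 microglia markers, 5 were called higher and 3 lower, and of 4 border macrophage and monocyte markers, 0 and 3. The part of these cell types in the changes was not tested.

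LPS+CLA and LPS+Baf A1 differed most in the cytokine genes. Il10 averaged 23.83 FPKM in LPS+CLA and 3.442 FPKM in LPS+Baf A1, a ratio of 6.924 (log2 change 2.49, SE 0.132, limma adjusted p = 1.15e-12). The ratio for Il19 was 7.276 (log2 change 1.64, SE 0.252, limma adjusted p = 1.46e-05). Stat3 was 11.68% lower in LPS+CLA (log2 change -0.18, limma adjusted p = 0.00067). Il10ra was 9.82% lower (-0.15, limma adjusted p = 0.0273; -0.23 under median-of-ratios scaling), with overlapping libraries, and this call was lost when Baf A1 replicate 3 or 4 or CLA replicate 3, 5 or 6 was left out, at adjusted p-values of up to 0.0615. Il10rb was not called, at 95.38 FPKM in LPS+CLA and 89.49 FPKM in LPS+Baf A1 (0.09, limma adjusted p = 0.0573). It was called as higher without CLA replicate 2 (0.12, limma adjusted p = 0.00586), while under median-of-ratios scaling its change was 0.01. Of all genes tested, 54.3% were called, 35.4% as higher and 19% as lower, and 39.5% had libraries that did not overlap.

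**Figure D2:**
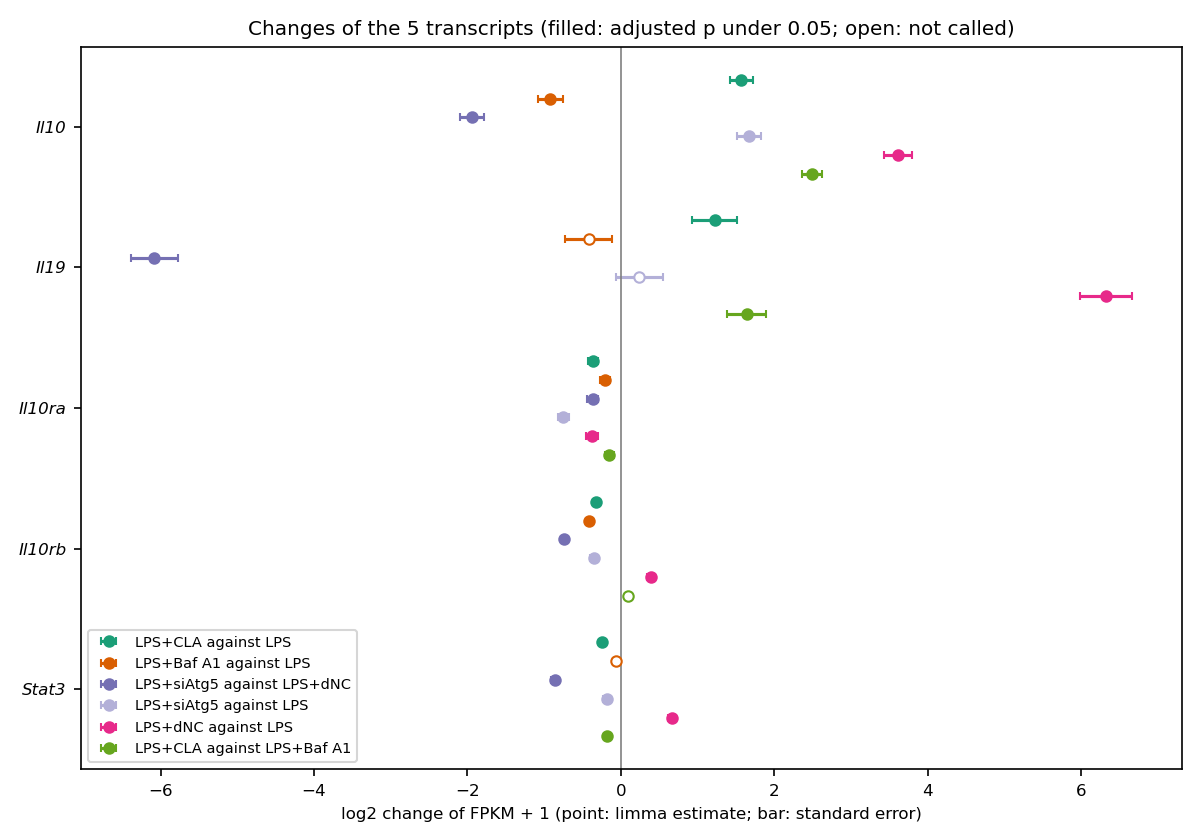
Log2 change of FPKM + 1 for the 5 transcripts in 6 comparisons, with the limma estimate as a point and its standard error as a bar; filled points have an adjusted p under 0.05. The range is widest for Il19, from -6.08 in LPS+siAtg5 against LPS+dNC to 6.32 in LPS+dNC against LPS, while Il10ra, Il10rb and Stat3 stay between -0.86 and 0.67.

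The effects of Baf A1 and of the Atg5 siRNA were then compared with each other, each taken against its own control. The Baf A1 effect minus the siAtg5 effect was 1.02 for Il10 (SE 0.225, limma adjusted p = 0.000381), 5.66 for Il19 (SE 0.431, limma adjusted p = 3.46e-10), 0.33 for Il10rb (SE 0.0665, limma adjusted p = 0.000131; 0.59 under median-of-ratios scaling) and 0.80 for Stat3 (SE 0.0684, limma adjusted p = 7.45e-10). For these 4 genes the fall against dNC was therefore larger than the change with Baf A1 against LPS. The 2 controls also differed. LPS+dNC was above LPS by 3.61 for Il10, 6.32 for Il19, 0.39 for Il10rb and 0.67 for Stat3. Against LPS alone, the siAtg5 changes were 1.67, 0.24, -0.35 and -0.18 in the same order. The part of the controls in the difference was not tested. For Il10ra the difference was 0.16 (SE 0.0965, limma adjusted p = 0.132) and was not called, though it was called under 3 of the alternative settings. Of all genes tested, 72.7% were called in this difference, with a median of -0.30.

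Each gene was also tested alone with an exact two-sided permutation test of its log2 values, 30 tests in all. These p-values were not adjusted for the number of tests. In LPS+CLA against LPS, Il10, Il19, Il10ra and Il10rb each had an exact permutation p of 0.0119, the smallest that 84 splits can give, and Stat3 had 0.0238. In LPS+Baf A1 against LPS, Il10, Il10ra and Il10rb were at 0.0179, the smallest of 56 splits, Il19 at 0.107 and Stat3 at 0.179 by exact permutation. In LPS+siAtg5 against LPS+dNC all 5 genes were at that smallest exact permutation p of 0.0179. In LPS+dNC against LPS the smallest exact permutation p that 3 against 3 libraries allow is 0.1, and all 5 genes were at it.

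The balance within the axis also differed between groups. Per length, the ratio of Il19 to Il10 was 1.117, 1.878 and 2.384 in the LPS+dNC libraries, from lowest to highest, and under 1 in all others. It had a median of 0.1315 in LPS+CLA, 0.1733 in LPS+Baf A1, 0.0574 in LPS+siAtg5 and 0.1415 in LPS. CLA replicate 2 was the exception among CLA libraries, with a ratio of 0.6332. The ratio of ligand to ligand-binding receptor, Il10 over Il10ra, had a median of 0.5521 in LPS+CLA, 0.06864 in LPS+Baf A1, 0.719 in LPS+siAtg5, 2.299 in LPS+dNC and 0.09518 in LPS. Il10 transcripts thus outnumbered Il10ra transcripts per length in the dNC libraries alone. The ratio of the 2 receptor chains, Il10rb over Il10ra, had a median of 2.117 in LPS+CLA, 1.689 in LPS+Baf A1, 2.588 in LPS+siAtg5, 3.316 in LPS+dNC and 1.951 in LPS.

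**Figure D3:**
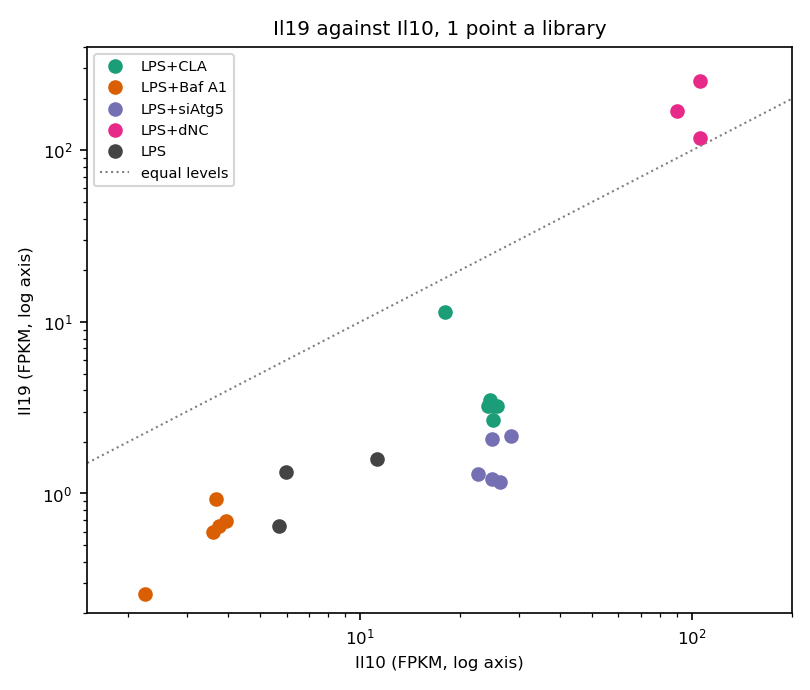
Il19 against Il10 in FPKM on logarithmic axes, 1 point a library, with a dotted line of equal levels. The 3 LPS+dNC libraries are the ones above the line, LPS+siAtg5 and most LPS+CLA libraries share an Il10 range of 22.65 to 28.48 FPKM at different Il19 levels, and the LPS+CLA point nearest the line is replicate 2.

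Of the other ligands and receptor chains of the family, 2 of 5 ligands and 2 of 5 chains were analysed here, and 3 of these 4 genes were at or near 0. Il20 was at 0 in 4 groups and averaged 0.02 FPKM in LPS+dNC, and Il22 was at 0 in every library. Il24, Ifnl2 and Ifnl3 were not analysed here. Of the other receptor chains, Il20rb, which pairs with IL-20RA to bind IL-19, was the one gene tested. It averaged 1.486 ± 0.262 FPKM (SD, n = 5) in LPS+Baf A1 and 0.45 ± 0.113 FPKM (n = 3) in LPS (log2 change 0.77, SE 0.0902, limma adjusted p = 1.7e-07). It also rose with CLA, to 0.835 FPKM against 0.45 FPKM in LPS (0.34, limma adjusted p = 0.00177), and was not called in siAtg5 against dNC (-0.20, limma adjusted p = 0.0511), though it was called lower there under median-of-ratios scaling (-0.30, limma adjusted p = 0.00499). Il22ra2 was at 0.02 FPKM or less in every library, and Il20ra, Il22ra1 and Ifnlr1 were not analysed here.

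Of the kinases that the receptors use and the other STAT genes, 9 of 10 were tested. With CLA, 4 were higher and 4 lower than in LPS, where 40.4% of all genes tested were called higher and 22.6% lower. Stat2, a transducer of interferon signals, fell to 110.4 ± 2.16 FPKM in LPS+CLA (SD, n = 6), against 238.3 ± 18.4 FPKM in LPS (n = 3). Stat6, which carries interleukin-4 signals, rose to 67.67 FPKM in LPS+CLA, against 51.79 FPKM in LPS, and Stat5a, which growth factors and cytokines use, to 4.248 FPKM, against 2.147 FPKM. With Baf A1, 4 were higher and 4 lower, against 32.7% and 25.1% of all genes. Tyk2, the kinase bound to IL-10RB, rose to 49.15 ± 2.67 FPKM (n = 5), against 34.68 ± 4.61 FPKM in LPS (log2 change 0.50, limma adjusted p = 5.64e-06), and Stat2 fell to 140.8 FPKM, against 238.3 FPKM. In siAtg5 against dNC, 3 were higher and 5 lower, and under median-of-ratios scaling 0 were higher and 6 lower, while of all genes 59.6% were called higher and 21.6% lower. Stat2 was at 137.7 FPKM in LPS+siAtg5, against 288.2 FPKM in LPS+dNC, and Jak3, the kinase of the common gamma chain, at 8.504 FPKM in LPS+siAtg5, against 18.05 FPKM in LPS+dNC. Without the 3 libraries that lay apart, the counts were 4 higher and 5 lower with CLA, 3 and 5 with Baf A1, and 3 and 5 in siAtg5 against dNC.

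The genes that IL-10 is known to induce in macrophages moved in both directions with CLA and had more falls than rises in the other 2 main comparisons. Of 18 genes in the list, 17 were tested. With CLA, 5 were higher and 7 lower than in LPS, at a median log2 change of -0.05, against 0.09 for all genes, of which 40.4% were called higher and 22.6% lower. Tnip3 rose to 121.5 ± 7.57 FPKM in LPS+CLA (SD, n = 6), against 68.96 ± 7.16 FPKM in LPS (n = 3), and Bcl3, a nuclear partner of NF-kB, to 40.5 FPKM, against 28.31 FPKM. Arg2, the mitochondrial arginase, fell to 2.948 ± 0.649 FPKM in LPS+CLA, against 21.01 ± 1.54 FPKM in LPS (log2 change -2.49, limma adjusted p = 1.08e-13), and Il21r, the interleukin-21 receptor, to 16.25 FPKM, against 58.65 FPKM. With Baf A1, 2 were higher and 12 lower, at a median of -0.25, against 0.04 for all genes, of which 32.7% were called higher and 25.1% lower. The 2 were Hmox1, the heme-degrading enzyme, at 744.3 ± 26.9 FPKM in LPS+Baf A1 (n = 5) and 511.8 ± 28.1 FPKM in LPS, and Bcl3 at 34.28 and 28.31 FPKM in these groups. Zfp36, which speeds the decay of cytokine mRNAs, fell to 42.42 ± 2.02 FPKM in LPS+Baf A1, against 133.9 ± 27.8 FPKM in LPS (log2 change -1.62, limma adjusted p = 1.64e-13), and Etv3, a repressor, to 10.09 FPKM, against 19.82 FPKM.

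In siAtg5 against dNC, 4 of the 17 IL-10-induced genes were higher and 11 lower, at a median of -0.66, against 0.34 for all genes, of which 59.6% were called higher and 21.6% lower. Il1rn, the interleukin-1 receptor antagonist, averaged 192.1 ± 14.7 FPKM in LPS+siAtg5 (SD, n = 5), against 1835 ± 227 FPKM in LPS+dNC (n = 3), a difference of -3.25 ± 0.099 (SE) on the log2 scale (limma adjusted p = 6.15e-18). Dusp1, the phosphatase that switches off p38, averaged 39.39 FPKM in LPS+siAtg5, against 342.0 FPKM in LPS+dNC. Marco, a scavenger receptor, went the other way, at 1209 ± 31.7 FPKM in LPS+siAtg5, against 291.3 ± 86.5 FPKM in LPS+dNC, as did Ddit4, at 3.414 and 0.7333 FPKM. The dNC cultures against LPS had 8 of the 17 higher and 7 lower, at a median of 0.14, against 0.00 for all genes, of which 29% were called higher and 28.1% lower. Without the 3 libraries that lay apart, the counts were 7 higher and 8 lower with CLA, 4 and 11 with Baf A1, 6 and 11 in siAtg5 against dNC, and 8 and 7 in dNC against LPS. Under median-of-ratios scaling they were 4 higher and 9 lower with CLA, at a median of -0.19, and 2 and 12 with Baf A1. That scaling gave 3 and 13 in siAtg5 against dNC, and 8 and 7 in dNC against LPS.

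Among the inflammatory genes that IL-10 is known to repress, more were higher than lower with Baf A1, and all but 1 of those tested were lower with the Atg5 siRNA than in dNC. Of 19 in the list, 18 were tested. With Baf A1, 10 were higher and 3 lower than in LPS, at a median log2 change of 0.65, against 0.04 for all genes, of which 32.7% were called higher and 25.1% lower. Il12b, the p40 subunit of interleukin-12 and interleukin-23, rose to 6.296 ± 0.787 FPKM in LPS+Baf A1 (SD, n = 5), against 0.4067 ± 0.0862 FPKM in LPS (n = 3), and Il1b, interleukin-1 beta, to 3551 ± 338 FPKM, against 971.3 ± 87.8 FPKM. Cxcl10, an interferon-induced chemokine, fell to 902.7 FPKM, against 1912 FPKM, and the costimulatory gene Cd86 to 27.3 FPKM, against 36.15 FPKM. With CLA, 2 were higher and 7 lower, at a median of -0.20, against 0.09 for all genes, of which 40.4% were called higher and 22.6% lower. The 2 were Il1b, at 2818 ± 695 FPKM in LPS+CLA and 971.3 ± 87.8 FPKM in LPS, and the neutrophil chemokine gene Cxcl1, at 20.43 and 9.737 FPKM. Cxcl10 fell to 274.8 ± 37.1 FPKM in LPS+CLA, against 1912 ± 326 FPKM in LPS (log2 change -2.79, limma adjusted p = 4.08e-16), and Cd86 to 8.368 FPKM, against 36.15 FPKM.

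In siAtg5 against dNC, 17 of the 18 IL-10-repressed genes were lower and 0 higher, at a median of -2.39, against 0.34 for all genes, of which 59.6% were called higher and 21.6% lower. Nos2, the inducible nitric oxide synthase, averaged 16.65 ± 1.94 FPKM in LPS+siAtg5 (SD, n = 5), against 537.6 ± 46.2 FPKM in LPS+dNC (n = 3), a difference of -4.94 ± 0.161 (SE) on the log2 scale (limma adjusted p = 8.12e-17), and Cd86 averaged 5.91 FPKM in LPS+siAtg5, against 48.03 FPKM in LPS+dNC. Against LPS, 14 were lower in LPS+siAtg5 and 0 higher, at a median of -1.35, while 61.2% of all genes were called higher and 15.6% lower. The dNC cultures themselves had 10 higher and 2 lower than LPS, at a median of 0.51, against 29% and 28.1% of all genes. LPS+CLA against LPS+Baf A1 had 17 lower and 0 higher, at a median of -1.28, while 35.4% of all genes were called higher and 19% lower. Without the 3 libraries that lay apart, the counts were 5 higher and 9 lower with CLA, 14 and 3 with Baf A1, 0 and 17 in siAtg5 against dNC, 0 and 15 in siAtg5 against LPS, 15 and 2 in dNC against LPS, and 0 and 18 in CLA against Baf A1. Under median-of-ratios scaling they were 2 higher and 10 lower with CLA, 10 and 3 with Baf A1, and 0 and 17 in siAtg5 against dNC. That scaling gave 0 and 16 in siAtg5 against LPS, 10 and 2 in dNC against LPS, and 0 and 17 in CLA against Baf A1.

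**Figure D4:**
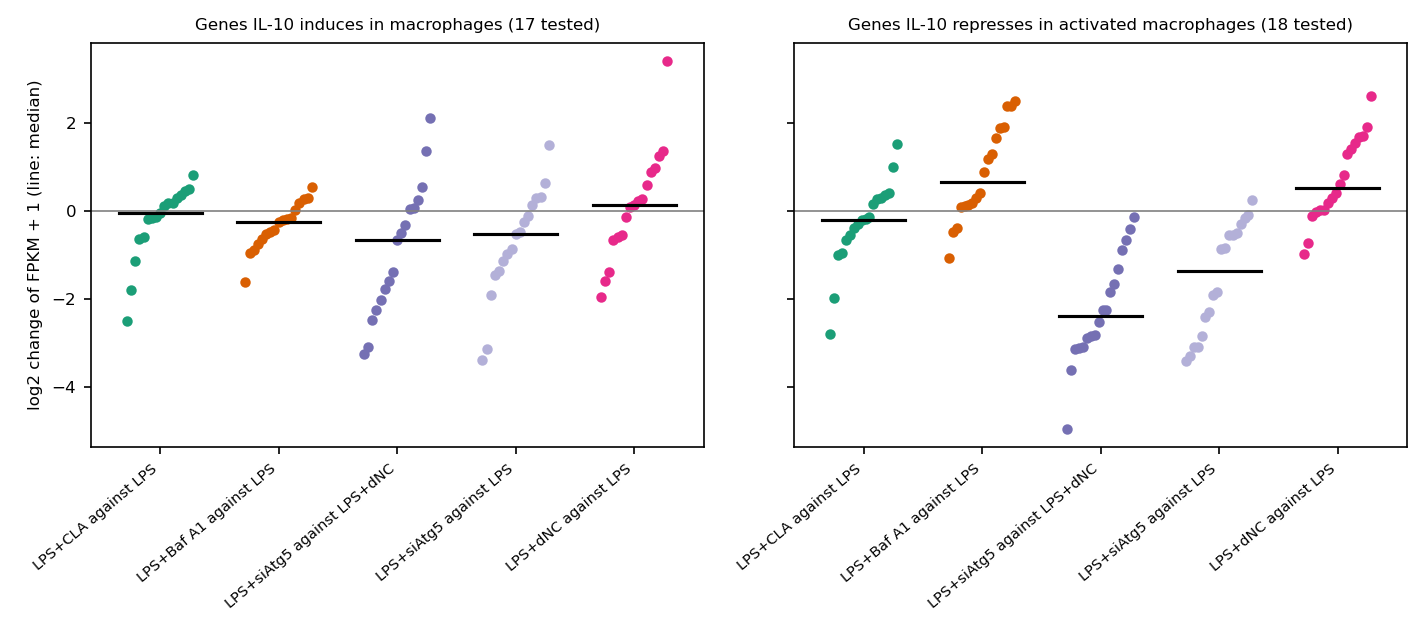
Log2 change of FPKM + 1 of each tested gene that IL-10 induces (left, 17 genes) or represses (right, 18 genes) in macrophages, 1 point a gene and a line at the median, in 5 comparisons. The medians of the repressed list lie at 0.65 in LPS+Baf A1 against LPS and -2.39 in LPS+siAtg5 against LPS+dNC, where all 18 points are below 0.

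Upstream of the cytokine, 24 of the 25 listed regulators of Il10 transcription were tested. With CLA, 8 were higher and 6 lower than in LPS, against 40.4% and 22.6% of all genes, and under median-of-ratios scaling 4 were higher and 10 lower. Their share called was thus near that of all genes, 63.1%. Ahr, the aryl hydrocarbon receptor, rose to 3.463 ± 0.155 FPKM in LPS+CLA (SD, n = 6), against 1.49 ± 0.197 FPKM in LPS (n = 3). Prdm1, which encodes the transcription factor BLIMP-1, fell to 4.565 ± 0.182 FPKM, against 10.3 ± 1.28 FPKM, and the NF-kB subunit gene Rela to 36.54 FPKM, against 49.59 FPKM. With Baf A1, 5 were higher and 9 lower, against 32.7% and 25.1% of all genes. Bhlhe40, a factor known to repress Il10 in T cells and macrophages, rose to 6.512 ± 0.881 FPKM in LPS+Baf A1 (n = 5), against 1.763 ± 0.252 FPKM in LPS, a difference of 1.44 ± 0.0957 (SE) on the log2 scale (limma adjusted p = 2.43e-11). Ahr rose there too, to 3.918 FPKM, against 1.49 FPKM. Map3k8, which encodes the kinase TPL2 downstream of Toll-like receptors, fell to 12.81 ± 0.271 FPKM, against 24.01 ± 0.944 FPKM, and Prdm1 to 4.42 FPKM, against 10.3 FPKM.

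In siAtg5 against dNC, 13 of the 24 regulators were higher and 7 lower, against 59.6% and 21.6% of all genes, and under median-of-ratios scaling 8 were higher and 12 lower. Mapk14, which encodes p38 alpha, averaged 53.9 FPKM in LPS+siAtg5, against 27.97 FPKM in LPS+dNC. Dusp1 was lower, as given above, and so was Map3k8, at 20.78 ± 0.301 FPKM in LPS+siAtg5, against 42.25 ± 0.764 FPKM in LPS+dNC (log2 change -0.99, limma adjusted p = 4.17e-16). In dNC against LPS, 8 were higher and 7 lower, against 29% and 28.1% of all genes, and under median-of-ratios scaling 8 and 11. Without the 3 libraries that lay apart, the counts were 7 higher and 8 lower with CLA, 5 and 10 with Baf A1, 11 and 8 in siAtg5 against dNC, and 9 and 10 in dNC against LPS.

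The 8 listed brakes on STAT3 signalling were all tested. Socs3, the inhibitor that STAT3 itself induces, averaged 93.45 ± 5.03 FPKM in LPS+siAtg5 (SD, n = 5), against 385.5 ± 24.9 FPKM in LPS+dNC (n = 3), a difference of -2.03 ± 0.0636 (SE) on the log2 scale (limma adjusted p = 8.83e-18), and Socs1 averaged 4.68 and 30.36 FPKM in these groups. In that comparison 2 were higher, the phosphatase gene Ptpn11 and Pias3, and 4 lower, but 1 higher and 5 lower without the 3 libraries that lay apart, and 0 higher and 5 lower under median-of-ratios scaling. Of all genes, 59.6% were called higher and 21.6% lower there. With Baf A1, 4 were higher and 2 lower than in LPS, against 32.7% and 25.1% of all genes. Ptpn1 rose to 68.16 FPKM, against 48.27 FPKM, while Ptpn2 fell to 15.39 FPKM, against 23.1 FPKM, and Socs3 to 227.4 FPKM, against 256.9 FPKM. With CLA, 2 were higher and 2 lower, against 40.4% and 22.6% of all genes, among them Socs1 at 6.155 ± 0.788 FPKM in LPS+CLA and 11.14 ± 1.77 FPKM in LPS. In dNC against LPS, 5 were higher and 0 lower, against 29% and 28.1% of all genes. Without the 3 libraries, the counts were 4 higher and 2 lower with Baf A1, 2 and 3 with CLA, and 7 and 0 in dNC against LPS.

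Of the other cytokines and receptors that act through STAT3, 13 of 20 were tested. With Baf A1, 3 were higher and 3 lower than in LPS, against 32.7% and 25.1% of all genes, and 4 were higher and 4 lower without the 3 libraries that lay apart. Il6 rose to 108.6 ± 11.3 FPKM in LPS+Baf A1 (SD, n = 5), against 47.58 ± 6.09 FPKM in LPS (n = 3), and Csf3, the granulocyte growth factor, to 95.01 FPKM, against 30.58 FPKM. Their receptor genes went the other way, with Il6ra at 9.106 FPKM in LPS+Baf A1 and 19.65 FPKM in LPS, and Csf3r at 68.43 FPKM in LPS+Baf A1, against 107.6 FPKM in LPS. With CLA, 2 were higher and 4 lower, against 40.4% and 22.6% of all genes, but 5 higher and 6 lower without those libraries, and 2 higher and 7 lower under median-of-ratios scaling. Csf3r fell to 61.84 FPKM in LPS+CLA, against 107.6 FPKM in LPS, and Ebi3, the shared subunit of interleukin-27 and interleukin-35, rose to 236.6 FPKM, against 168.9 FPKM. Il11ra1 also rose, but 46.3% of its sequence is shared with other genes. In siAtg5 against dNC, 6 were higher and 6 lower, against 59.6% and 21.6% of all genes, and 6 and 7 without those libraries. Il27, the other subunit of interleukin-27, averaged 6.812 ± 0.679 FPKM in LPS+siAtg5, against 73.73 ± 8.73 FPKM in LPS+dNC, and Csf3r averaged 42.56 FPKM in LPS+siAtg5, against 135.8 FPKM in LPS+dNC. Osmr, the oncostatin M receptor, was higher, at 4.332 FPKM in LPS+siAtg5, against 0.3267 FPKM in LPS+dNC, as was Cntf, of which 78% of the sequence is shared with another gene.

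The tested neighbours of Il10 and Il19 on chromosome 1 did not always move in the direction of the cytokine genes. Of the 9 listed neighbours, 3 were tested. Mapkapk2, the p38-activated kinase that starts 78 kb beyond the start of Il10, averaged 255.8 ± 36.4 FPKM in LPS+CLA, 317.7 ± 2.91 FPKM in LPS+Baf A1, 163.1 ± 2.63 FPKM in LPS+siAtg5, 217.2 ± 11.3 FPKM in LPS+dNC and 207.5 ± 4.66 FPKM in LPS. It was higher with Baf A1, where Il10 was lower (log2 change 0.61, limma adjusted p = 2.36e-07), and was not called in dNC against LPS (0.06, limma adjusted p = 0.518), where Il10 was higher. Its rise with CLA, at 0.29, was not called under median-of-ratios scaling, at 0.15 and an adjusted p of 0.135. Eif2d, at 133.0 kb, changed by 0.31 to 0.39 in the 3 main comparisons, and its call against dNC was also lost under that scaling (0.10, adjusted p = 0.312). Rassf5, at 225.0 kb, was lower with CLA, at 3.882 ± 0.751 FPKM, against 7.087 ± 0.333 FPKM in LPS. Ikbke, at 260 kb, and Pfkfb2, at -291 kb, were outside the list but were also tested. Ikbke was called lower with Baf A1 (log2 change -0.67), with CLA (-0.83) and in siAtg5 against dNC (-0.94). It was called higher in dNC against LPS (0.16). Pfkfb2 was called in siAtg5 against dNC alone, as higher (0.43).

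**Figure D5:**
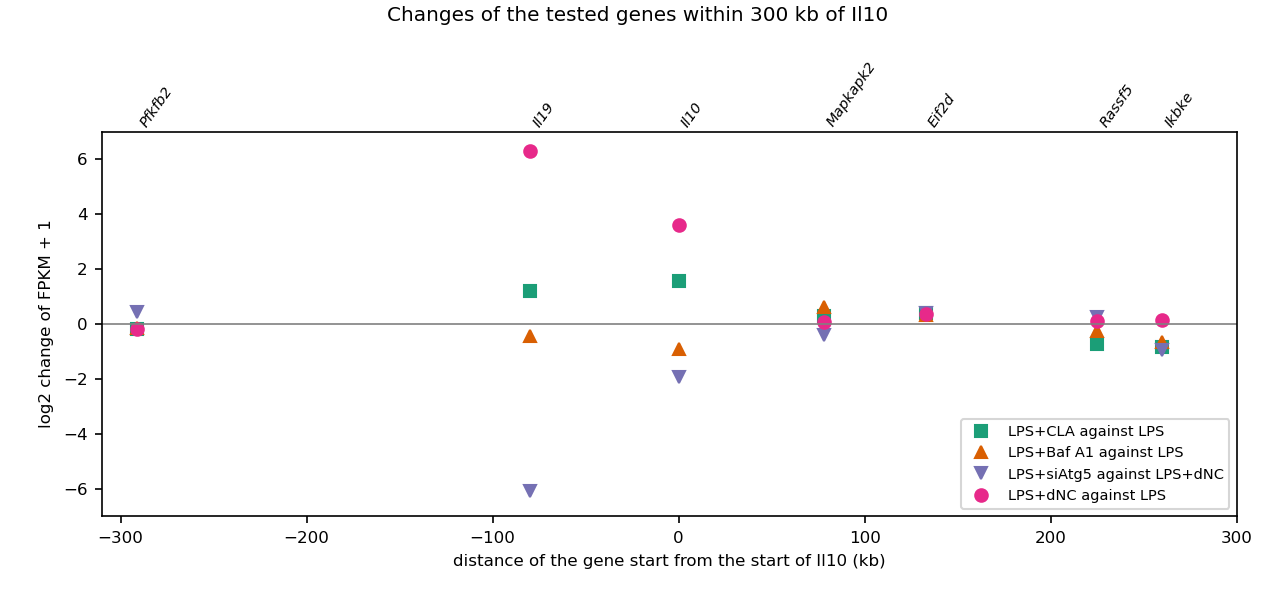
Log2 change of FPKM + 1 in 4 comparisons for each tested gene that starts within about 300 kb of Il10, by the distance of its start from that of Il10 in kb. The widest changes shown are 6.32 for Il19 and 3.61 for Il10, both in LPS+dNC against LPS, while the other genes shown stay within 1 on the log2 scale.

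Genes whose pattern was most like that of each member were named by Pearson's correlation of log2(FPKM + 1) over the 22 libraries, as a description in which the 5 groups set most of the spread. For Il10 they were Lactb2 (r = 0.968), Yy1 (0.966) and Abhd17b (0.957), and Lactb2 averaged 4.307 FPKM in LPS+CLA, 2.608 in LPS+Baf A1, 4.702 in LPS+siAtg5, 6.85 in LPS+dNC and 3.37 in LPS. For Il19 they were Samsn1 (0.986), Ppp2ca (0.979) and Saa1 (0.971), all highest in dNC, where Saa1 averaged 21.1 FPKM, against 1.113 FPKM in LPS. For Il10ra they were Dhx58 (0.922), Mmp25 (0.918) and Slco3a1 (0.916). For Il10rb they were Stxbp3 (0.972), Tmem251 (0.970) and Lpar6 (0.964), and for Stat3 Tap2 (0.987), Sdc4 (0.974) and Antxr2 (0.972). Among the members, Il10rb and Stat3 were the closest pair (0.849), followed by Il19 with Stat3 (0.838), Il19 with Il10rb (0.804) and Il10 with Il19 (0.803). Il10ra stood apart, with r between -0.519 (Il10) and 0.195 (Stat3).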

How the data were processed

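Poly(A) RNA of 22 libraries was sequenced on an Illumina instrument, per the labels' protocols. The authors deposited FPKM per gene symbol, per the file headers for 19 columns, whereas the 3 LPS+dNC columns have no unit in the header and were taken as FPKM because their ranges and sums match. The tools, per the submitters' processing notes, were CASAVA 1.7, fastp 0.18.0, Bowtie2 2.2.8, HISAT2 and StringTie 1.3.1. No build or annotation is given in the sources used here. FPKM sums were 469750 to 575125 per library. In pairs of libraries of a group, at most 0.3639% of genes at 20 FPKM or more had equal values, so none was counted as a duplicate. Groups were taken from the titles.

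Values were analysed as log2(FPKM + 1) with limma 3.58.1 (R 4.3.3; trended, robust empirical Bayes; 5 group means over all 22 libraries), for the genes that reached 1 FPKM in 3 or more libraries. The code was tested on simulated data. Positions came from GENCODE M21 (GRCm38), used for names and positions only. Alternatives were other pseudocounts (0.1 and 0.01), no filter, a filter of 5 FPKM, median-of-ratios scaling, quantile normalization, fits of the compared groups alone, array weights, a replicate block and the omission of libraries. Counts of list genes without 3 libraries and under median-of-ratios scaling were chosen after seeing the data. The members and gene lists were chosen with earlier results of these data known. Besides the members, the text names per list and main comparison up to 2 called genes in each direction with the smallest adjusted p, given 1 FPKM or more in the higher group, and for each member the 3 genes of highest correlation. A few genes that this rule picks are not reported here. Some genes stand in more than 1 list (Dusp1, Socs3, Il6, Il21r, Csf3, Il20 and Il24).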

Additional observations from a re-analysis of the deposited data

Results flagged for a closer look

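Within groups of 4 to 10 libraries, a library was singled out where the gap to its nearest neighbour took a larger share of the group's range than Dixon's 95% limit allows (0.625 for 6 libraries, 0.71 for 5). Of 15 gene and group pairs checked, 5 were past it, and chance gives about 1 in 20. Of these, 4 were LPS+CLA replicate 2: Il10 at 18.05 FPKM (gap share 0.792) was lower than in the other 5 CLA libraries, while Il19 at 11.43 FPKM (0.905), Il10ra at 57.82 FPKM (0.844) and Stat3 at 66.87 FPKM (0.741) were higher. These 4 come from 1 library and are not independent. The fifth was Il10 in LPS+Baf A1 replicate 2, at 2.25 FPKM (0.788), lower than in the other 4 Baf A1 libraries.

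The effect of Baf A1 against LPS minus that of the Atg5 siRNA against dNC was called for 4 genes: 1.02 for Il10 (limma adjusted p = 0.000381), 5.66 for Il19 (limma adjusted p = 3.46e-10), 0.33 for Il10rb (limma adjusted p = 0.000131) and 0.80 for Stat3 (limma adjusted p = 7.45e-10), all on the log2 scale. In this difference 72.7% of all genes were called. The dNC control was itself above LPS alone in these 4 genes, and its part in the difference was not tested.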

How the results depend on the processing

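The 35 results on single members gave 680 values under alternative settings, of which 663 kept direction and side of the threshold. The other 17 concern small or uncalled changes, and the cause was not tested. Il19 in LPS+siAtg5 against LPS turned to -0.61 (quantile normalization). Il19 in LPS+Baf A1 against LPS was called at -0.42 in a fit of the 2 groups alone. Stat3 in LPS+Baf A1 against LPS was called at -0.10 both with array weights and without the 3 libraries that lay apart. Il10rb in LPS+CLA against LPS+Baf A1 was called at 0.11 with array weights and 0.12 without the 3 libraries, but its change was 0.01 under median-of-ratios scaling. For Il10ra, the Baf A1 effect minus the siAtg5 effect was called at 0.42 (median-of-ratios scaling), 0.20 (array weights) and 0.18 (without the 3 libraries). With single libraries left out, Il10ra in LPS+Baf A1 against LPS ranged from -0.24 to -0.16, Il10ra in LPS+CLA against LPS+Baf A1 from -0.21 to -0.14 and Il10rb in that comparison from 0.07 to 0.12. Replicate numbers did not pair the libraries: deviations of same-numbered libraries correlated at -0.2062 to 0.1959 over 36 pairs, against -0.2335 to 0.2483 over 154 other pairs. With the replicate block, Il10ra in LPS+CLA against LPS+Baf A1 was no longer called, at -0.14, no other member's call changed, and 6031 genes were called in LPS+Baf A1 against LPS. No count of called genes moved by over 1.5 times. Median-of-ratios scaling brought the share of calls that were higher to 54.14% in LPS+siAtg5 against LPS+dNC (73.36% as reported), 49.39% in LPS+CLA against LPS (64.12%), 50.83% in LPS+siAtg5 against LPS (79.71%), 51.08% in LPS+CLA against LPS+Baf A1 (65.06%) and 44.51% in the difference of effects (28.08%). The depth is unknown, which limits statements on Il19 under 1 FPKM.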
